A study of Mus musculus with 8 samples.

Results

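The genes described here encode the cytosolic translation initiation factors (eIF) and elongation factors (eEF) of the mouse, proteins that start and extend a polypeptide on the ribosome. Members were chosen by symbol: every gene whose symbol begins with Eif and a digit up to 6, or names an eEF1 or eEF2 factor, was taken. The eIF2 alpha kinases, the eIF4E-binding proteins with an Eif4ebp symbol, the Y-linked Eif2s3y and pseudogenes with a numbered -ps symbol were left out. Of 73 symbols that matched, 56 were kept, out of 55487 genes in the tables, and 54 of them are annotated as protein coding. Their transcripts were counted by RNA sequencing of mouse dorsomedial hypothalamus (DMH), a nucleus with roles in appetite, wakefulness and circadian behaviour, whose sample names carry LMD, the usual abbreviation of laser microdissection. The 4 shPpp1r17 libraries carry a knockdown hairpin directed at Ppp1r17, whose product inhibits protein phosphatases, and the 4 shfLuc libraries a control hairpin directed at firefly luciferase, a gene that mice lack. The labels give no strain, age, sex, delivery route, promoter or time for either hairpin, and they leave unsaid whether the libraries are separate animals. The p-values therefore describe the spread among libraries only. In bulk tissue, fewer cells of a type and less RNA per cell cannot be told apart.

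Initiation factors bring the small ribosomal subunit, the initiator tRNA and the capped mRNA together, scan to the start codon and let the large subunit join. Elongation factors then deliver each aminoacyl-tRNA and move the ribosome along by a codon. Many mRNAs of ribosomal proteins and several of these factors begin with a cytosine followed by a run of C and T bases, the terminal oligopyrimidine or TOP motif, through which the kinase mTOR and the RNA-binding protein LARP1 control their translation and storage. In neurons, local and activity-dependent protein synthesis depends on these factors.

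The sequence around the transcription start is shown for 7 genes because TOP mRNAs are defined by that start: 4 factors known as TOP mRNAs that passed the test of expression (Eif3f, Eef1a1, Eef2, Eif4b), another that passed (Eif3m) and 2 that did not pass (Eef1a2, Eif4g1). Each covers 70 bases, 40 before and 30 after the RefSeq start on GRCm38.p6, written 5′ to 3′ on the gene's own strand, with the longest unbroken run of C and T in capitals. Where runs tied in length, as in Eif4b, only the first is in capitals.
Eif3f: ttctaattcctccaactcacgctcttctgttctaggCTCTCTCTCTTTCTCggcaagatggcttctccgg
Eef1a1: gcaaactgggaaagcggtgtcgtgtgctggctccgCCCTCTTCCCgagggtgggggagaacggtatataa
Eef2: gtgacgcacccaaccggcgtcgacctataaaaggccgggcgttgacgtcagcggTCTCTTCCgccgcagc
Eif4b: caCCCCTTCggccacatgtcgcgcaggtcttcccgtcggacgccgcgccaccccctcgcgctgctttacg
Eif3m: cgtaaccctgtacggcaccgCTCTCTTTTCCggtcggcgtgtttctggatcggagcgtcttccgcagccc
Eef1a2: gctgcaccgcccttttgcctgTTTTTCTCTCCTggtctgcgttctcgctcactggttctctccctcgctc
Eif4g1: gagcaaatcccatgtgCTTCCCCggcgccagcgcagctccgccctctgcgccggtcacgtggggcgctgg
These lie at chr7:108934375-108934444 (plus strand) for Eif3f, chr9:78481695-78481764 (minus) for Eef1a1, chr10:81176591-81176660 (plus) for Eef2, chr15:102073733-102073802 (plus) for Eif4b, chr2:105016998-105017067 (minus) for Eif3m, chr2:181156986-181157055 (minus) for Eef1a2 and chr16:20672687-20672756 (plus) for Eif4g1. The longest run of Eif3f was 15 bases and spanned the annotated start, from position -4 to 11, and that of Eef1a1 was 10 bases, from -5 to 5. The Eef1a1 window ends, downstream of that run, in tatataa, the letters of a TATA box promoter motif. Whether the Eef1a1 run lies in the mRNA was not tested. That of Eef2 was 8 bases and lay at 15 to 22, downstream of the annotated start.

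Long runs were not limited to genes that passed the test of expression. Eef1a2, which did not pass, held a run of 12 bases, at -19 to -8, while Eif4b, which passed, and Eif4g1, which did not, held runs of 7. A run of at least 8 C or T bases on the gene's strand lay in the window of 5 of 10 members called higher with a RefSeq entry and of 12 of 32 members not called. It lay in 3 of 5 members of the TOP list with an entry, in 39 of 63 cytosolic ribosomal protein genes (61.9%) and in 8075 of 27025 genes with any entry (29.9%). The annotated starts need not be those used in this tissue, and a run of letters in a window is a description of the sequence and not a site.

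Transcripts of the translation factors took a larger share of the reads in every shPpp1r17 library than in any shfLuc library. The 56 genes together held 1.37, 1.55, 1.62 and 1.47% of reads in shPpp1r17 1 to 4, against 1.34, 1.25, 1.20 and 1.19% in shfLuc 1 to 4. The means were 1.50% ± 0.109 in shPpp1r17 and 1.25% ± 0.0690 in shfLuc (SD, n = 4 each). Libraries held 25637389 to 33907984 estimated reads in shPpp1r17 and 23070147 to 25749643 in shfLuc.

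Of the 53 members with enough reads to be tested, 15 rose in shPpp1r17 and 0 fell (edgeR quasi-likelihood test, Benjamini-Hochberg adjusted p under 0.05 over all 17339 genes). Among all genes tested, 6.06% were called in the same fit, 3.39% higher and 2.66% lower, and among the 9248 genes with an average level at or above that of the lowest member, 5.01% rose. At an unadjusted p under 0.05, 3 members were lower, and DESeq2 and limma voom each called 0 members lower, against 5.30% and 2.75% of all genes. The 53 members had a median log2 fold change of 0.12, against 0.0043 over all genes tested, with 41 above zero and 12 below. The 38 members not called ran from -0.27 to 0.46. Every shPpp1r17 library lay above every shfLuc library for 15 members, against 7.12% of all genes tested, and below for 1 member, against 6.74%. The 3 members not tested were Eif4e1b and Eif2c5, listed at 0 reads in every library, and Eif5al3-ps, with at most 2 reads in any library.

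**Figure D1:**
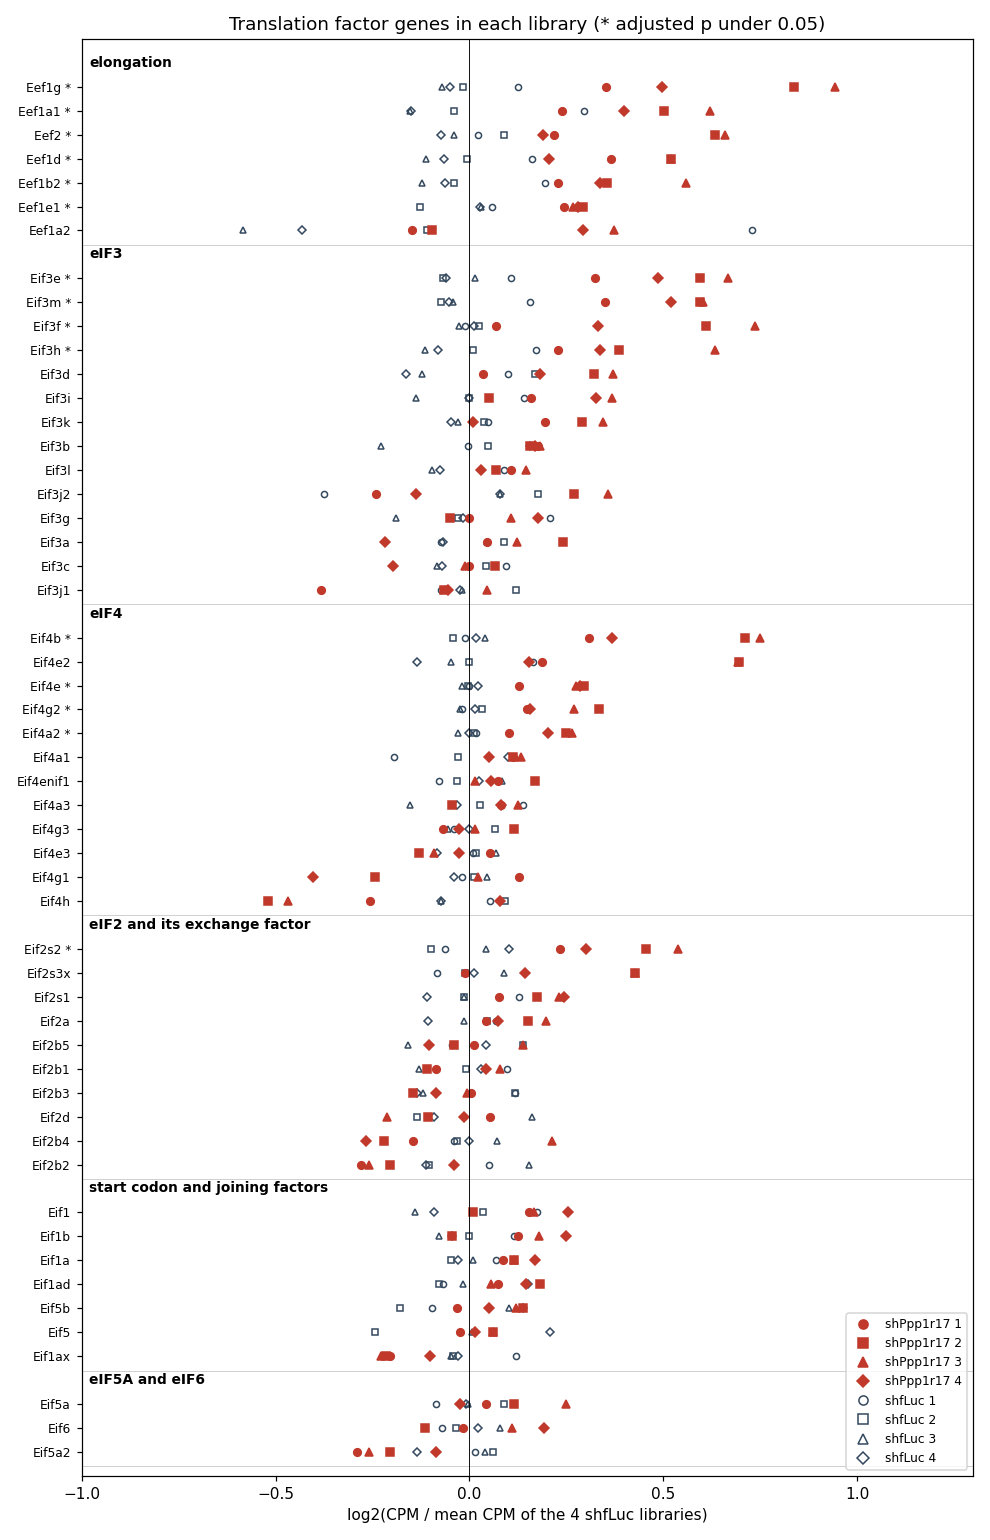
Each of the 53 tested genes has a row, grouped by role, and each point is a library's CPM divided by the mean of the 4 shfLuc libraries, on a log2 axis (filled, shPpp1r17; open, shfLuc; the shape gives the library number). An asterisk marks the 15 genes with an adjusted p under 0.05, which are 6 of the 7 elongation genes and 9 initiation genes.

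Of the 7 elongation genes, 6 rose, and the median log2 fold change was 0.41. This group was taken by the Eef symbol, so both counts include Eef1e1, a gene of the tRNA synthetase complex. The product eEF1A carries aminoacyl-tRNA to the ribosome, the eEF1B complex recharges eEF1A with GTP, and eEF2 drives translocation. Eef1g, the gamma subunit of the eEF1B complex, stood at 567, 793, 853 and 626 CPM (read counts scaled to library size with TMM factors) in shPpp1r17 1 to 4, against 484, 439, 423 and 429 CPM in shfLuc 1 to 4. The groups did not overlap, and shPpp1r17 2 and 3 were highest. Its log2 fold change was 0.68 (SE 0.11, 1.60-fold, adjusted p = 0.0110 in edgeR), the largest among the members. Eef1d, the delta subunit and a guanine nucleotide exchange factor, stood at 90.6, 101, 101 and 81.1 CPM in shPpp1r17, against 78.8, 70.1, 65.2 and 67.3 CPM in shfLuc. Eef1b2, the other exchange subunit, stood at 218, 238, 274 and 235 CPM in shPpp1r17, against 213, 181, 171 and 178 CPM in shfLuc. In both genes the lowest shPpp1r17 library lay only just above shfLuc 1, the highest of the shfLuc libraries. Their log2 fold changes were 0.41 (SE 0.09, adjusted p = 0.0233 in edgeR) for Eef1d and 0.38 (SE 0.09, adjusted p = 0.0291 in edgeR) for Eef1b2.

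Eef1a1, the ubiquitous eEF1A, was the most abundant member per length, with 3053 ± 326 TPM (transcript share scaled to gene length) in shPpp1r17 and 2386 ± 294 TPM in shfLuc (SD, n = 4 each). It stood at 2879, 3460.2, 3755 and 3222 CPM in shPpp1r17, against 2998, 2375, 2195 and 2201 CPM in shfLuc. Here the groups overlapped, since shfLuc 1 lay above shPpp1r17 1. Eef1a1 was the single called member with overlapping groups (log2 fold change 0.45, SE 0.10, adjusted p = 0.0267 in edgeR). Eef2, the translocase, stood at 742, 989, 1007 and 728 CPM in shPpp1r17, against 648, 679, 621 and 606 CPM in shfLuc. Its groups were apart, with libraries 2 and 3 of shPpp1r17 well above the others (log2 fold change 0.44, SE 0.10, adjusted p = 0.0291 in edgeR). Eef1e1 encodes a small protein of the tRNA synthetase complex related to eEF1B. It was even within its group, at 110.2, 114, 112 and 113 CPM in shPpp1r17, against 97.0, 85.3, 95.1 and 94.9 CPM in shfLuc (log2 fold change 0.27, SE 0.07, adjusted p = 0.0358 in edgeR).

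The exception was Eef1a2, the eEF1A of mature neurons and muscle, which had 28.1 ± 5.33 TPM in shPpp1r17 and 27.0 ± 11.3 TPM in shfLuc (SD, n = 4 each). It stood at 29.6, 30.7, 42.5 and 40.2 CPM in shPpp1r17, against 54.4, 30.4, 21.9 and 24.3 CPM in shfLuc, with shfLuc 1 the highest of all 8 libraries. Its log2 fold change was 0.13 (SE 0.24, adjusted p = 0.797 in edgeR), and 0.49 without shfLuc 1. The log2 ratio of Eef1a2 to Eef1a1 on TPM averaged -6.78 ± 0.25 in shPpp1r17 and -6.54 ± 0.37 in shfLuc (SD, n = 4 each), and the difference of -0.24 was within the spread (exact two-sided permutation p = 0.429, adjusted p = 0.514 over 6 paralog pairs).

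The eIF3 complex, the large scaffold that binds the small subunit and recruits the mRNA, gave 4 called genes of 14, all higher, with a median log2 fold change of 0.19. Eif3e stood at 240.5, 290.1, 305 and 269 CPM in shPpp1r17, against 207, 183, 194 and 184 CPM in shfLuc. Eif3m stood at 179.8, 213, 214 and 202 CPM in shPpp1r17, against 157, 134, 137 and 136 CPM in shfLuc. Both genes had groups clearly apart, with shPpp1r17 1 the lowest of its group and shfLuc 1 the highest of its own. The log2 fold change was 0.52 in each (SE 0.08 in both, adjusted p = 0.0102 for Eif3e and 0.0100 for Eif3m in edgeR). Eif3f stood at 38.2, 55.6, 60.7 and 45.8 CPM in shPpp1r17, against 36.1, 37.0, 35.7 and 36.7 CPM in shfLuc. The shfLuc libraries were nearly equal while those of shPpp1r17 spread widely, and shPpp1r17 1 barely cleared shfLuc (log2 fold change 0.46, SE 0.12, adjusted p = 0.0423 in edgeR). Eif3h stood at 335, 374, 444 and 361 CPM in shPpp1r17, against 322, 288, 264 and 270.4 CPM in shfLuc. Its groups did not overlap, with the same order at both ends as in Eif3e and Eif3m (log2 fold change 0.40, SE 0.09, adjusted p = 0.0269 in edgeR).

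The other 10 eIF3 genes did not pass the test. They include Eif3a and Eif3b, core subunits on which the complex is built, with log2 fold changes of 0.06 (SE 0.09) and 0.17 (SE 0.09). Eif3c, another core subunit, stood at 234, 245, 232 and 204 CPM in shPpp1r17, against 249.9, 241, 221 and 223 CPM in shfLuc, a log2 fold change of -0.03 (SE 0.08). Eif3k, with Eif3h among the most abundant of the complex per length, had 381 ± 27.8 TPM in shPpp1r17 and 349 ± 6.56 TPM in shfLuc (SD, n = 4 each), and Eif3h had 426 ± 46.0 TPM in shPpp1r17 and 342 ± 21.5 TPM in shfLuc (SD, n = 4 each). Eif3k had a log2 fold change of 0.21 (SE 0.08, adjusted p = 0.129 in edgeR). Eif3i was at 0.23 (SE 0.09, adjusted p = 0.132 in edgeR). So the complex was not uniform: its subunits ran from -0.11 (Eif3j1) to 0.52 on the log2 scale.

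Most of the eIF4 genes serve the capped end of the mRNA, and 4 of 12 rose, with a median log2 fold change of 0.09. The group was taken by symbol and includes Eif4a3 and Eif4enif1, which have other roles. They were at 0.06 (SE 0.08) and 0.08 (SE 0.08) and did not pass. Eif4b, which stimulates the eIF4A helicase, stood at 171, 226, 232 and 178 CPM in shPpp1r17, against 137, 134, 142 and 139.7 CPM in shfLuc. The groups were well apart, and shPpp1r17 2 and 3 stood above shPpp1r17 1 and 4 (log2 fold change 0.54, SE 0.10, adjusted p = 0.0124 in edgeR). Eif4e, the cap-binding protein, stood at 479, 538, 530.3 and 534 CPM in shPpp1r17, against 438, 437, 432 and 445 CPM in shfLuc. Its groups did not overlap, and shPpp1r17 1 lay between the other shPpp1r17 libraries and shfLuc (log2 fold change 0.25, SE 0.06, adjusted p = 0.0329 in edgeR).

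The helicase Eif4a2, enriched in brain, had the highest level of the eIF4 genes per length, 1624 ± 70.1 TPM in shPpp1r17 and 1473 ± 41.6 TPM in shfLuc (SD, n = 4 each). It stood at 2043, 2262, 2289 and 2192 CPM in shPpp1r17, against 1927, 1919, 1866 and 1904 CPM in shfLuc. Its rise was the smallest of the called members, 1.15-fold (log2 fold change 0.21, SE 0.05, adjusted p = 0.0429 in edgeR), with groups apart. Eif4g2, an eIF4G relative without the eIF4E-binding region, stood at 597, 679.7, 650 and 601 CPM in shPpp1r17, against 532, 551, 529.6 and 544 CPM in shfLuc. Its groups were apart as well (log2 fold change 0.23, SE 0.06, adjusted p = 0.0494 in edgeR), and it was the called member nearest to the threshold.

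Just beyond the threshold was Eif4e2, a cap-binding relative of eIF4E that represses translation, at 45.4, 64.6, 64.5 and 44.4 CPM in shPpp1r17, against 44.7, 39.9, 38.6 and 36.3 CPM in shfLuc. Libraries 2 and 3 of shPpp1r17 stood apart, while libraries 1 and 4 lay at the level of shfLuc 1 (log2 fold change 0.46, SE 0.13, adjusted p = 0.0578 in edgeR). DESeq2 called it. The main scaffold Eif4g1 (log2 fold change -0.11, SE 0.11), its paralog Eif4g3 (0.01, SE 0.07), the helicase Eif4a1 (0.10, SE 0.08) and the cap-binding Eif4e3 (-0.05, SE 0.10) did not pass. Eif4h, a helicase cofactor related to Eif4b, stood at 133, 111, 115 and 168 CPM in shPpp1r17, against 165, 169.5, 151 and 151 CPM in shfLuc. The groups overlapped through shPpp1r17 4 (log2 fold change -0.27, SE 0.12, adjusted p = 0.177 in edgeR), so the value runs opposite to that of Eif4b without passing the test. The log2 TPM ratios of Eif4a2 to Eif4a1, Eif4g3 to Eif4g1, Eif4e3 to Eif4e and Eif4e2 to Eif4e differed between shPpp1r17 and shfLuc by 0.12, 0.09, -0.28 and 0.24, with adjusted p of 0.429, 0.629, 0.257 and 0.286 in the exact permutation test over the same 6 pairs.

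The genes of eIF2, which carries the initiator tRNA, and of its exchange factor eIF2B were grouped with Eif2a and Eif2d, which belong to neither complex. This group showed 1 called gene of 10 and a median log2 fold change of -0.01. Eif2a was at 0.12 (SE 0.07) and Eif2d at -0.07 (SE 0.10), and neither passed. Eif2s2, the beta subunit of eIF2, stood at 193, 225, 238 and 202 CPM in shPpp1r17, against 157, 153, 169 and 176 CPM in shfLuc. The groups did not overlap (log2 fold change 0.39, SE 0.08, adjusted p = 0.0197 in edgeR). Its partners Eif2s1, the alpha subunit that stress kinases phosphorylate, and Eif2s3x, the gamma subunit that binds GTP, were at 0.18 (SE 0.07, adjusted p = 0.173 in edgeR) and 0.25 (SE 0.10, adjusted p = 0.144 in edgeR). Eif2s3x had the values 124, 168, 168 and 138 CPM in shPpp1r17, against 118, 124, 133 and 126 CPM in shfLuc, with the highest values again in shPpp1r17 2 and 3. The 5 eIF2B genes ran from -0.19 (Eif2b2) to 0.0038 (Eif2b5), and none of them passed in edgeR, DESeq2 or limma voom, or at an unadjusted p under 0.05.

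None of the 7 start codon and subunit joining genes passed in edgeR, DESeq2 or limma voom, and 1 was lower at an unadjusted p under 0.05 in edgeR. The group was taken by symbol, so it includes Eif1ad, at 0.12 (SE 0.08). The median log2 fold change of the 7 genes was 0.12. Eif1, which guards start codon choice, was the most abundant of them per length at 1609 ± 81.4 TPM in shPpp1r17 and 1496 ± 114 TPM in shfLuc (SD, n = 4 each), with a log2 fold change of 0.15 (SE 0.08, adjusted p = 0.281 in edgeR). The paralogs that encode eIF1A, a scanning factor, lay on opposite sides. Eif1a stood at 154, 157, 157 and 163 CPM in shPpp1r17, against 152, 140.4, 146 and 142 CPM in shfLuc (log2 fold change 0.12, SE 0.06). The X-linked Eif1ax stood at 89.4, 88.7, 87.9 and 96.0 CPM in shPpp1r17, against 112, 100.1, 99.6 and 101 CPM in shfLuc (log2 fold change -0.19, SE 0.07). The groups of each were apart, above for Eif1a and below for Eif1ax, and neither passed (adjusted p = 0.280 and 0.135 in edgeR). Eif5, which triggers GTP hydrolysis by eIF2, and Eif5b, the subunit joining GTPase, were at 0.03 (SE 0.09) and 0.07 (SE 0.08).

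Eif5a, whose hypusine-bearing product eases stalled ribosomes, and Eif6, which keeps the large subunit from joining early, had log2 fold changes of 0.10 (SE 0.07) and 0.05 (SE 0.08) and did not pass in edgeR. Eif5a2, the less abundant paralog with 6.30 ± 0.328 TPM in shPpp1r17 and 7.76 ± 0.697 TPM in shfLuc (SD, n = 4 each), was at -0.20 (SE 0.09, adjusted p = 0.198 in edgeR). The log2 ratio of Eif5a2 to Eif5a on TPM was -6.14 ± 0.15 in shPpp1r17 and -5.84 ± 0.13 in shfLuc (SD, n = 4 each), a difference of -0.30 (exact two-sided permutation p = 0.0571, adjusted p = 0.257 over the 6 pairs). The smallest p this design allows is 0.0286.

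**Figure D2:**
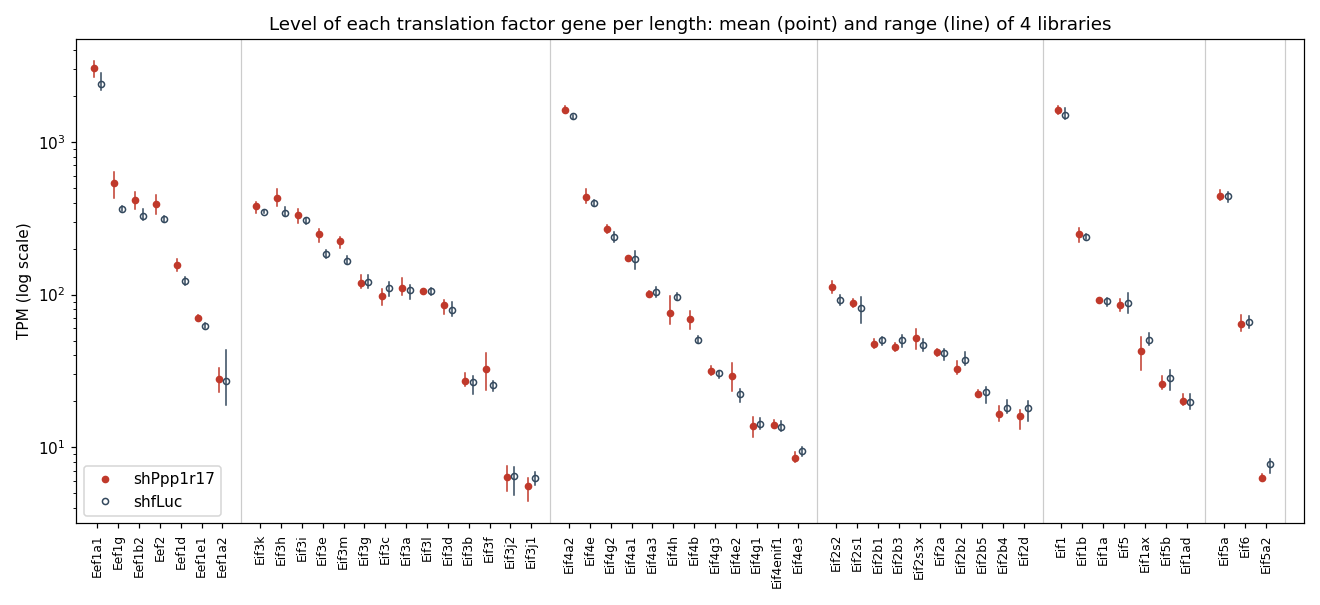
The points give the mean TPM of each tested gene on a log axis and the lines the range of the 4 libraries, for shPpp1r17 (filled) and shfLuc (open), grouped by role in the order elongation, eIF3, eIF4, eIF2, start codon, eIF5A and eIF6. Mean TPM in shfLuc ran from 6.29 for Eif3j1 to 2386 for Eef1a1.

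The called genes included every factor on the TOP list. The 9 members known as TOP mRNAs (Eef1a1, Eef1b2, Eef1d, Eef1g, Eef2, Eif3e, Eif3f, Eif3h and Eif4b) were all called higher, with a median log2 fold change of 0.45. Of the other 44 tested members, 6 (13.6%) were called higher, with a median of 0.08. The cytosolic ribosomal protein genes, the largest class of TOP mRNAs, gave 71 higher and 0 lower of 80 tested, with a median of 0.61. These are counts beside the 3.39% of all genes that rose, and the TOP list was drawn up with the rise of ribosomal protein genes in these libraries already known.

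The size of the TOP group's rise differed between libraries of the same hairpin. The median of the 9 TOP members relative to the shfLuc mean was 0.24, 0.59, 0.66 and 0.34 in shPpp1r17 1 to 4, against 0.13, -0.01, -0.07 and -0.06 in shfLuc 1 to 4, on the log2 scale. For the 80 ribosomal protein genes it was 0.39, 0.71, 0.86 and 0.39 in shPpp1r17, against 0.20, -0.04, -0.12 and -0.07 in shfLuc. The 44 other members had 0.05, 0.09, 0.13 and 0.06 in shPpp1r17, against 0.03, 0.0024, -0.02 and -0.03 in shfLuc. So both TOP groups had shPpp1r17 3 and 2 on top and shfLuc 1 as the highest control. The 44 other members had the same libraries on top, over a narrower range. Each of the 15 called members peaked in shPpp1r17 2 or 3, and 13 of them had both of these libraries above both of the other shPpp1r17 libraries. The same counts were not taken over all called genes, so they are not shown to be particular to the members.

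**Figure D3:**
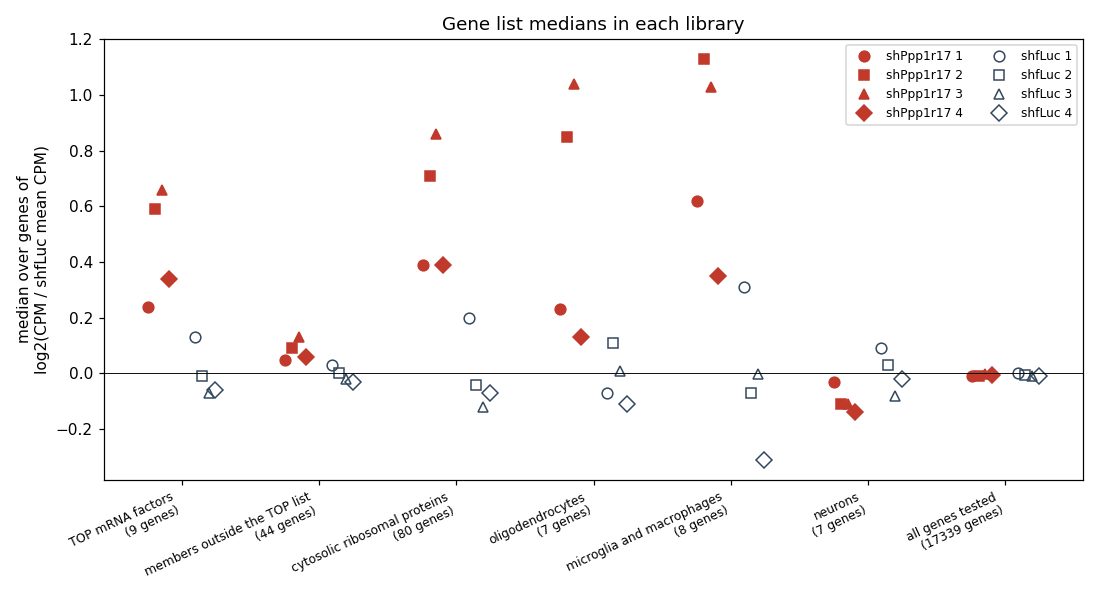
Each point is a library's median, over the genes of a list, of log2(CPM divided by the shfLuc mean), for shPpp1r17 (filled, left) and shfLuc (open, right). The TOP members and ribosomal protein genes peak in shPpp1r17 3 (0.66 and 0.86), as do the oligodendrocyte markers (1.04), while the other members stay between -0.03 and 0.13.

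The same libraries differed in other ways. Ppp1r17 itself stood at 87.7, 2.07, 3.10 and 87.2 CPM in shPpp1r17 1 to 4, against 147, 161, 161 and 171 CPM in shfLuc 1 to 4, so its loss was deepest in libraries 2 and 3 (log2 fold change -1.83, SE 0.80, adjusted p = 0.197 in edgeR; exact two-sided permutation p = 0.0286, the smallest possible). It passed in limma voom (-3.31, adjusted p = 0.0368), with sample quality weights (-3.85, adjusted p = 0.00746), and in edgeR without shPpp1r17 2 and 3 (-0.88, adjusted p = 0.00428), but not in DESeq2 (-1.83, adjusted p = 0.312). The 6 DMH markers, Ppp1r17 included, were detected in every library, and their summed level was 117 to 271 CPM in shPpp1r17 and 329.6 to 376 CPM in shfLuc. The hairpin's own target weighs on this gap. Ppp1r17 averaged 45.0 of a mean sum of 190.4 CPM in shPpp1r17, and 160.1 of 349 CPM in shfLuc. Of the other markers, Brs3, Cck, Grp and Npvf had log2 fold changes of -1.18, -0.75, -0.41 and -0.37, and Gpr50 0.14. None of the 6 was called in edgeR (3 lower at an unadjusted p under 0.05) or DESeq2, and 2 were lower in limma voom. The first principal component of all genes held 32.3% of the variance. On it shPpp1r17 1 to 4 lay at 16.5, 46.9, 46 and 2.45, and shfLuc 1 to 4 at -8.08, -30.8, -29.3 and -43.6. So shPpp1r17 2 and 3 lay at one end and shfLuc 4 at the other.

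Markers of some other cells were also higher in shPpp1r17, and not always in the same libraries. Of 8 microglia and macrophage markers 4 rose and 0 fell, and their sum was 345, 553, 509 and 289 CPM in shPpp1r17 1 to 4, and 198 to 283 CPM in shfLuc. Of 7 oligodendrocyte markers 2 rose and 0 fell, and their sum was 1287, 2047, 2164 and 1175 CPM in shPpp1r17 1 to 4, and 1153 to 1209 CPM in shfLuc. These sums were highest in shPpp1r17 2 and 3. All 5 blood markers rose (792, 1231, 783 and 638 CPM in shPpp1r17 1 to 4, and 328 to 567 CPM in shfLuc), as did 2 of 4 B and plasma cell markers (119.9 to 1135 CPM in shPpp1r17 and 33.7 to 78.3 CPM in shfLuc, with Mzb1 at 0 in at least 1 library). Of 6 astrocyte markers 2 rose and 1 fell (1493 to 1702 CPM in shPpp1r17 and 1589 to 1838 CPM in shfLuc), and of 7 neuron markers 1 rose and 3 fell (3715 to 4076 CPM in shPpp1r17 and 3751 to 3837 CPM in shfLuc). Of 4 endothelial markers 1 rose (84.9 to 148 CPM in shPpp1r17 and 76.1 to 93.1 CPM in shfLuc), and of 3 tested ependymal and tanycyte markers 1 rose (17.6 to 56.8 CPM in shPpp1r17 and 9.56 to 27.9 CPM in shfLuc). In shPpp1r17 1 to 4 the B and plasma cell sums were 353, 1135, 468 and 119.9 CPM, and the endothelial sums 84.9, 117, 148 and 97.5 CPM. The neuron sums were 3715, 4076, 3968 and 3909.5 CPM. All of these sums were also highest in shPpp1r17 2 and 3. Snap25 alone made up 1714 of the mean neuron sum of 3917 CPM in shPpp1r17. The 3 neuron markers that fell, Syt1, Eno2 and Nefl, were lowest in shPpp1r17 2 and 3, and Tubb3, which rose, was highest there. The median of the neuron markers relative to the shfLuc mean was -0.03, -0.11, -0.11 and -0.14 in shPpp1r17 1 to 4, on the log2 scale. The blood and ependymal sums peaked in shPpp1r17 2, with shPpp1r17 1 only slightly above 3 (792 against 783 CPM, and 42.3 against 40.6 CPM). The astrocyte sum was highest in shPpp1r17 2 and lowest in shPpp1r17 3. It mixes opposite patterns. Gfap (119.5, 341, 246 and 110.4 CPM in shPpp1r17 1 to 4) and S100b, which rose, were highest in shPpp1r17 2 and 3. Slc1a3, which fell, was lowest there (912, 695, 641 and 850.2 CPM). The part of these cells in the rise of the translation factors was not tested.

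The regulators of these factors gave 1 call each in 3 lists, beside 3.39% of all genes called higher and 2.66% called lower. Of 15 genes for kinases and other brakes on translation, 0 rose and 1 fell: Eif4ebp2, the main brain eIF4E-binding repressor, stood at 27.1, 24.7, 23.2 and 28.3 CPM in shPpp1r17, against 34.6, 32.5, 30.5 and 35.8 CPM in shfLuc. Its groups did not overlap (log2 fold change -0.37, SE 0.09, adjusted p = 0.0366 in edgeR). Of 10 genes of the mTOR arm, 0 rose and 1 fell: Tsc2, which restrains mTOR, stood at 33.6, 29.9, 29.5 and 36.7 CPM in shPpp1r17, against 42.5, 44.1, 41.8 and 45.9 CPM in shfLuc (log2 fold change -0.42, SE 0.09, adjusted p = 0.0183 in edgeR). In both genes shPpp1r17 2 and 3 were the lowest libraries. Mtor was at -0.01 (SE 0.10) and Larp1 at 0.08 (SE 0.07), and neither passed. Rheb and Mlst8, also of the mTOR arm, were both at -0.34 (SE 0.12 and 0.13, adjusted p = 0.105 and 0.139 in edgeR). Of the 10 genes of this arm, 3 were above zero and 7 below, with a median of -0.09. At an unadjusted p under 0.05 in edgeR, 0 were higher and 3 lower, against 1909 of all 17339 genes lower. DESeq2 called 2 lower, against 5.30% of all genes. Of 11 tested genes for enzymes that methylate elongation factors or make their diphthamide or hypusine residue, 0 rose and 1 fell: Dph6, a diphthamide enzyme that modifies eEF2, at 22.7, 16.8, 15.4 and 24.6 CPM in shPpp1r17, against 30.3, 32.7, 32.0 and 29.9 CPM in shfLuc (log2 fold change -0.65, SE 0.14, adjusted p = 0.0192 in edgeR). All 3 calls were lost in edgeR without shfLuc 2, 3 or 4 and without shPpp1r17 2 or 3, with adjusted p of 0.0543 to 0.120. That of Eif4ebp2 was also lost without shfLuc 1 (adjusted p = 0.0699 in edgeR), with the length and GC trend removed (0.0831), with the effective length offset (0.0550) and on log2(TPM + 1) with limma (0.0643). That of Tsc2 was lost with the effective length offset (adjusted p = 0.0699 in edgeR).

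None of 12 genes for poly(A) binding, recycling and termination and none of 9 for mitochondrial translation passed in edgeR, with median log2 fold changes of 0.11 and -0.02. At an unadjusted p under 0.05, 3 and 0 of them were higher and 1 and 1 lower, DESeq2 called 1 and 0, and limma voom 0 and 0. The smallest adjusted p in edgeR was that of Pabpc1, the poly(A)-binding protein and itself a TOP mRNA, named after its values were seen. It stood at 79.2, 101, 109 and 82.9 CPM in shPpp1r17, against 81.7, 68.6, 72.2 and 70.7 CPM in shfLuc. Its groups overlapped through shfLuc 1 (log2 fold change 0.34, SE 0.11, adjusted p = 0.0726 in edgeR).

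The number of called members rested on single libraries. In edgeR it was 0 without shfLuc 2 and 0 without shfLuc 3, where 0 of all genes passed too; 20 and 18 members were then higher at an unadjusted p under 0.05, DESeq2 called 14 and 13 higher (3.86% and 3.70% of all genes), and limma voom 0 and 0. It was 5 without shfLuc 4, 4 without shPpp1r17 2 and 4 without shPpp1r17 3, where 1.08%, 1.19% and 0.770% of all genes were called higher. Without both shPpp1r17 2 and 3 it was 0, with 17 members higher at an unadjusted p under 0.05 and 0.144% of all genes called higher; DESeq2 and limma voom were not run there. Eef1g, Eif3e, Eif3m and Eif4b were the 4 called without shPpp1r17 2 and without shPpp1r17 3, and with Eif2s2 the 5 called without shfLuc 4. Each of these 4 was called in 18 of 21 alternatives, the most of any member, while Eif3f, Eif4a2 and Eif4g2 were called in 8. All 15 kept a positive fold change in all 21, as genes selected on these same libraries largely must.

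The count also differed in fits that bring in gene length. With the deposited effective length as an offset in edgeR, 12 members were called higher, 8 of them in the TOP list, against 3.02% of all genes. On log2(TPM + 1) with limma, which changes both the scale and the test, 5 members were called higher (Eef1d, Eef1g, Eif3e, Eif3m and Eif4b; 1.78% of all genes), 4 of them in the TOP list, and the members' median fold change was 0.04, against -0.06 over all genes. In that fit 38.8% of all called genes were higher, against 56.0% in edgeR on counts. With each library's trend with gene length and GC content removed, 10 members were called higher, 5 of them in the TOP list, against 2.62% of all genes.

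**Figure D4:**
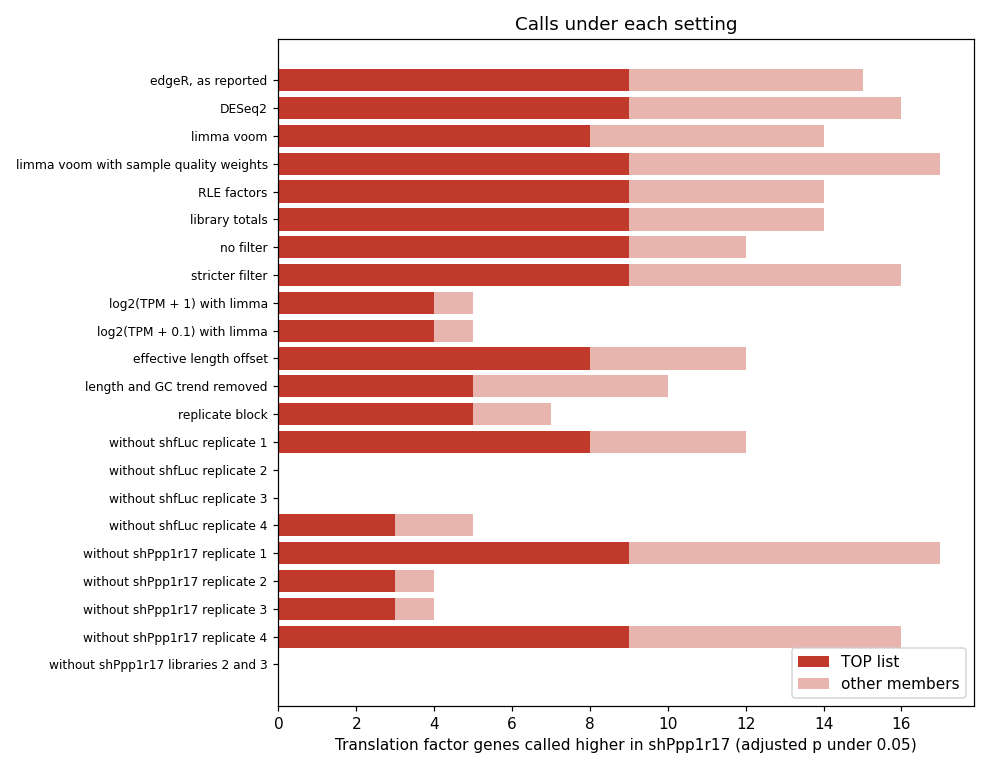
Bars give the number of members called higher at an adjusted p under 0.05 under each setting, dark for the 9 members of the TOP list and pale for the other members. The bar of 15 reported here drops to 0 without shfLuc 2 or 3 and to 4 without shPpp1r17 2 or 3.

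Some of these reads cannot be assigned with certainty. By 31-base words of the GENCODE M21 transcripts, 18 members shared over 10% of their sequence with another gene, among them 9 of the called members, and the median share was 3.28%. Processed pseudogenes are common in this family. The share was 49.8% for Eef1a1, 47.6% for Eef1g, 29.4% for Eif3h, 26.2% for Eif3m and 21.2% for Eef2, and 94.9% for Eif3j2, whose reads can hardly be told from those of Eif3j1. It was 10.9% for Eif3e.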

How the data were processed

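A PicoPure isolation and a SMARTer library kit were used on the 8 DMH samples, per the labels' protocols. Per the file headers, each deposited table lists lengths, TPM and estimated read counts for 55487 genes, of which 55141 matched a symbol. The submitters' processing notes list DRAGEN, bcl2fastq, limma and edgeR without roles, and the genome build is not given in sources used here. The deposited expected counts were fractional for as many as 10.1% of a library's genes and were rounded. TPM values, which the authors scaled to length and library, gave the levels per length, the paralog ratios and an alternative fit. The deposited effective length, in bases per the file headers, was an offset in another.

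The test was edgeR's quasi-likelihood test (4.0.16, R 4.3.3) with TMM factors, its filter (minimum count 10, minimum total count 15), the group as single term and Benjamini-Hochberg adjustment over 17339 genes at 0.05; standard errors came from the fold change and F statistic. The script was tested on simulated data. Alternatives used DESeq2 1.42.0, limma 3.58.1 (voom, and log2 TPM with a pseudocount of 1 or 0.1), other filters and scalings, a replicate block and libraries left out. Counts of PCR reads are not independent molecules. Replicates differed by 7.37 to 40.7 times counting noise (chi-square over its degrees of freedom). The members, the gene lists and the alternatives were chosen with earlier results of these data known. Named genes were Ppp1r17, each called member, in each role group the most abundant gene and that of smallest p, the paralog pairs, and called genes of the regulator lists. Other genes were named after their values were seen. Promoters are from RefSeq (42 of 53 tested members matched).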

Additional observations from a re-analysis of the deposited data

Results flagged for a closer look

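Of 96 sets of 4 libraries checked, 3 had a library far from the other libraries of its group; chance gives such a gap in about 1 in 20. Eif1ax stood at 112 CPM in shfLuc 1, against 100.1, 99.6 and 101 CPM in the other shfLuc libraries. Eif3m stood at 157 CPM in shfLuc 1, against 134, 137 and 136 CPM. Eif4e stood at 479 CPM in shPpp1r17 1, against 538, 530.3 and 534 CPM in the other shPpp1r17 libraries.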

How the results depend on the processing

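In edgeR without 1 library at a time, members called higher numbered 0 to 17, called lower 0 to 1 (Eif4h, without shPpp1r17 4), TOP members 0 to 9, members outside the TOP list 0 to 8, and all genes called 0 to 1548. In DESeq2 these were 12 to 18 members higher, 0 to 2 lower (Eif1ax and Eif4h, without shPpp1r17 4) and 999 to 2339 genes; in limma voom 0 to 17, 0 to 1 and 0 to 1671. Leaving out 1 library gave a median outside the TOP list of 0.05 to 0.10 on the log2 scale. Without shPpp1r17 2 and 3, edgeR called 0 members higher, 0 in the TOP list and 0 outside it, and 37 genes in all (26 higher, 11 lower). With the replicate number as a block, 7 members were called (5 in the TOP list, 2 outside) and 726 genes in all; same-numbered libraries deviated together with correlations of -0.0116, 0.0354, 0.00569 and 0.116, so the numbers were not taken as pairs. DESeq2 called 1903 genes and limma voom with sample quality weights 1763, with 1 member lower (Eif4h). No filter left 3 members called outside the TOP list. On log2(TPM + 1) and log2(TPM + 0.1), 5 members were called in each (4 in the TOP list, 1 outside), with medians of 0.04 over all members and 0.02 outside the TOP list. With the length and GC trend removed 5 TOP members were called. The causes were not tested.

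Some fold changes near zero changed sign: Eif4g1 with effective length offsets (0.05), Eif3c without shfLuc 1 (0.003) or shPpp1r17 4 (0.02; -0.06 to 0.02 with any library left out), Eef1a2 without shfLuc 3 (-0.02; -0.02 to 0.49), Eif4g3 without shfLuc 3 (-5.6e-05), shPpp1r17 2 (-0.02) or both shPpp1r17 2 and 3 (-0.04), and Eif4e3 without those 2 (0.01). So did the difference in the ratio of Eif4g3 to Eif4g1 without shPpp1r17 2 (-0.02; -0.02 to 0.16 with any library left out). Over 34 named genes and 21 alternatives, 544 values kept direction and side of the threshold, 148 lost the call, 14 gained it and 8 changed sign. Standard errors of single members, 0.05 to 0.24 on the log2 scale with 4 libraries a group, bound what could be detected.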
